A study of Arabidopsis thaliana with 27 samples.

Results

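The genes described here are 9 amino acid transporter loci of Arabidopsis thaliana, 7 of the UMAMIT family (UMAMIT11, UMAMIT14, UMAMIT18, UMAMIT24, UMAMIT25, UMAMIT28 and UMAMIT29) and 2 of the AAP family (AAP1 and AAP8). They were chosen by name and by their expression differences between temperatures and stages in these same libraries, and are 9 of the 27587 loci in the table of estimated counts. No numerical threshold set the choice. Since the measurements were in view, the values of the 9 genes are given as a description and without p-values. The loci are AT2G40900 (UMAMIT11), AT2G39510 (UMAMIT14), AT1G44800 (UMAMIT18), AT1G25270 (UMAMIT24), AT1G09380 (UMAMIT25), AT1G01070 (UMAMIT28), AT4G01430 (UMAMIT29), AT1G58360 (AAP1) and AT1G10010 (AAP8). The table also held 44 other UMAMIT or MtN21-type genes and 6 other AAP genes.

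Whole seeds of the wild type Col-0 were collected when the embryo was at the heart, bent or mature stage. From the first flower buds or flowers on, the mother plants were kept in 1 of 3 constant regimes. These were 24 °C by day and 22 °C by night (mean 23 °C, control), 26 °C and 24 °C (mean 25 °C, mild stress), and 28 °C and 26 °C (mean 27 °C, severe stress). The stressed plants were moved to another chamber. By the study's methods a set of control plants stayed where it was, while its results describe control plants as moved too. Crossing stage with temperature gave 9 groups of 3 libraries, 27 in all, which the study calls biological replicates, and every group shared the genotype. A seed holds embryo, endosperm and maternal seed coat, so a level is an average over these tissues, and fewer cells of a type cannot be told apart from less RNA per cell.

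UMAMIT proteins (Usually Multiple Acids Move In and out Transporters) are membrane proteins that let amino acids leave cells, or move into and out of the vacuole. AAP proteins (amino acid permeases) are proton-coupled importers of the plasma membrane. The embryo has no vascular link to the mother plant, so amino acids unloaded from the maternal phloem must be exported by the seed coat and the endosperm and imported again by endosperm and embryo before storage protein can be made. In Arabidopsis UMAMIT14 and UMAMIT18 act in unloading from the phloem. UMAMIT11, UMAMIT28 and UMAMIT29 are exporters of seed tissues, UMAMIT24 is a vacuolar membrane protein of the chalazal seed coat, and UMAMIT25 acts at the plasma membrane of endosperm cells. AAP1 imports amino acids into the embryo, and AAP8 acts in the early endosperm and in the phloem.

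Total counts per library ranged from 17227596 to 19445885, and all 9 genes passed the filter on low counts. Normalised counts are estimated counts divided by a size factor of the library, which makes 1 gene comparable between libraries. The control heart library of replicate 1 stood apart, since its summed normalised count of 9 seed storage protein genes was 96804, against 664 and 1304 in the other control heart libraries. Mature seeds at 25 °C also held unlike libraries, since replicate 2 had a size factor of 0.979 against 0.809 and 0.844 and a storage protein sum of 1566473 against 2966518 and 3374613. The control bent library of replicate 3 had a size factor of 0.829, against 1.04 and 1.08 in the others of its group. Markers of seed coat, endosperm and embryo were all detected, and no marker gene was at 0 throughout a group. At 27 °C all 5 pollen marker genes fell against 23 °C in each of the stages, and their summed normalised counts were at most 2914 in any library.

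UMAMIT24, UMAMIT25, UMAMIT28 and UMAMIT29 were the 4 of the 9 genes with the highest fold changes in heart seeds at 27 °C. The stretch just before the annotated start of the first 3 is shown so that these promoters can be read side by side. Each line holds 250 bases of the TAIR10.1 assembly (RefSeq), 5′ to 3′ on the strand of the gene. Capitals mark a match to 1 of the 6 searched motifs. UMAMIT24 (chr1:8857476-8857725, plus strand) held none. UMAMIT25 (chr1:3029550-3029799, minus strand) held a W-box core and an RY motif, and UMAMIT28 (chr1:41018-41267, minus strand) held a W-box core.
UMAMIT24: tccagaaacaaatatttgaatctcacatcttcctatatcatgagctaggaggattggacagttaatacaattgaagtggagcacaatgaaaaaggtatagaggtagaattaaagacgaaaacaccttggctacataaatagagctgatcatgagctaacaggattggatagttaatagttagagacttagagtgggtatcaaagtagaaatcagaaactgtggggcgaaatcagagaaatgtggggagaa
UMAMIT25: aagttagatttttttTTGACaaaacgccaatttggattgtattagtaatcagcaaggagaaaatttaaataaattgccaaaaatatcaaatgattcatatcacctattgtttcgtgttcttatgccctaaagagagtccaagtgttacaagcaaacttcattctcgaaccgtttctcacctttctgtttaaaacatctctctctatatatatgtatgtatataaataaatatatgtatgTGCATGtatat
UMAMIT28: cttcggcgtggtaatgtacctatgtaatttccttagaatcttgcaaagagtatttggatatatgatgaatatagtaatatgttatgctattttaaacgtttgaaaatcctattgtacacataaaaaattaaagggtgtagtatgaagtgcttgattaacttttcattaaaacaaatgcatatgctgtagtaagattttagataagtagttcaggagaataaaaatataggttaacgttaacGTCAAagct

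The motifs were searched on both strands in the same window of UMAMIT11, UMAMIT14, UMAMIT18, UMAMIT24, UMAMIT25, UMAMIT28, AAP1 and AAP8 and of 27437 genes. None of these 8 held a G-box (CACGTG, in 6.5% of all windows), an abscisic acid response element (ACGTGNC, 8.6%) or a prolamin box (TGTAAAG, 4.5%). The RY motif (CATGCA, 8.4% of all windows) was found in UMAMIT18 and UMAMIT25. The heat shock element core (GAANNTTC, 9.6%) was found in AAP8 alone among the 8. The W-box core (TTGAC, 44.9%) was found in UMAMIT25, UMAMIT28 and AAP8. The searched G-box and response element can overlap each other. These are matches of letters only.

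At 27 °C, 6 of the 9 genes were past the threshold as higher than at 23 °C in heart seeds and 0 as lower, namely UMAMIT11, UMAMIT18, UMAMIT24, UMAMIT25, UMAMIT28 and UMAMIT29. The threshold was an adjusted p under 0.05 in DESeq2, which 12.6% of all tested genes passed as higher and 11.5% as lower. The groups of 3 did not overlap for the same 6 genes as higher and for UMAMIT14 and AAP1 as lower, which was the case for 21.9% and 22.9% of all tested genes. The median log2 fold change of the 9 genes was 0.76, beside -0.01 over all tested genes. Leaving out the control heart library of replicate 1 kept the count at 6, and leaving out replicate 2 or 3 of that group gave 5.

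UMAMIT28 had the largest fold change of the 9. Its normalised counts in heart seeds were 31.1, 22.4 and 10.6 at 23 °C, 34.8, 25.8 and 22.5 at 25 °C, and 261, 300 and 213 at 27 °C. The lowest library at 27 °C was thus above every library at the other temperatures. The log2 fold change at 27 °C against 23 °C was 3.60 ± 0.29 (SE, n = 3 per group), which is 12.1-fold, and 3.97 ± 0.35 without the control library of replicate 1. UMAMIT24, the vacuolar transporter of the seed coat, was as low in control heart seeds, with 37.5, 8.95 and 20.4. At 27 °C it had 73.3, 108 and 67.0, all above the control libraries, a log2 fold change of 1.90 ± 0.35, or 2.50 ± 0.40 without the control library of replicate 1.

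UMAMIT25, the exporter of endosperm cells, was far more abundant. Its heart counts were 1579, 1317 and 1778 at 23 °C and 4559, 5360 and 4355 at 27 °C. The lowest 27 °C library was above every control and every 25 °C library, and the log2 fold change was 1.61 ± 0.17, or 3.05-fold. UMAMIT29 counts were 935, 733 and 863 at 23 °C and 1874, 2011 and 1666 at 27 °C, with no overlap, and its log2 fold change was 1.13 ± 0.19.

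Other seed genes moved in the same libraries. The summed normalised count of 7 endosperm markers was 10644 to 12485 in heart seeds at 27 °C and 2549 to 5054 at 23 °C. Of the 7 markers 2 were past the threshold as higher and 1 as lower, with a median log2 fold change of 0.24. Over all libraries the marker EPR1 had 2187476 counts and no other endosperm marker more than 11446, so these sums weigh EPR1 most. The storage protein sum was 8087 to 13653 at 27 °C, 20 to 85 at 25 °C, and 664, 1304 and 96804 at 23 °C, the last in control replicate 1. Against 25 °C 8 of the 9 storage protein genes were higher at 27 °C. Against 23 °C 0 were higher and 3 lower, a comparison that includes control replicate 1, while the other control libraries lay below every 27 °C library. The seed coat sum over 9 markers was 46931 to 50830 at 27 °C and 38540 to 46520 at 23 °C, with 5 higher and 4 lower. The 7 embryo markers summed to 4905 to 7003 at 27 °C and to 2185, 2485 and 32237 at 23 °C, the last in replicate 1, with 1 higher. Over all libraries CRU3 (5686583 counts) and OLEO1 (1327252) were the largest of the embryo markers. CRU3 is also 1 of the 9 storage protein genes, so these 2 sums are not separate. The part of any of these in the transporter values was not tested.

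**Figure D1:**
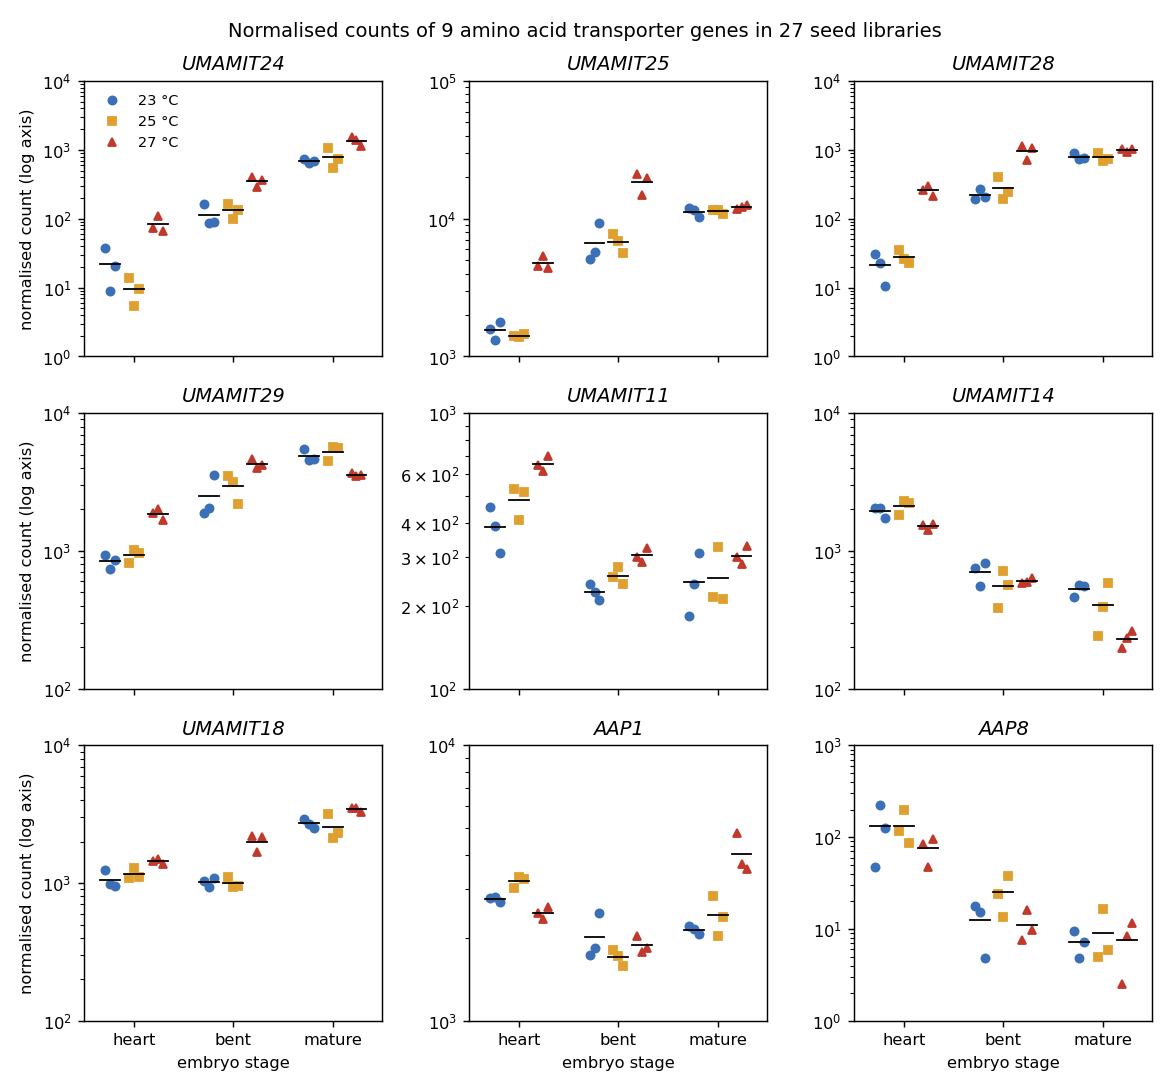
Normalised count (vertical log axis, a separate range in each panel) of each of the 9 genes by embryo stage, with 1 point per library, colour and shape for temperature, and a black line at the mean of 3 libraries. In heart and bent seeds the 27 °C points of UMAMIT24, UMAMIT25, UMAMIT28 and UMAMIT29 lie above all points at 23 °C, whereas at the mature stage UMAMIT29 lies below them and AAP1 above.

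In bent seeds 6 of the 9 genes were again past the threshold as higher at 27 °C and 0 as lower, where 15.9% and 21.0% of all tested genes were. They were the same 6 loci as at the heart stage, and for each of them the groups of 3 did not overlap, as for 21.5% of all tested genes in that direction and 24.1% in the other. The other 3 genes overlapped. The median log2 fold change of the 9 genes was 0.79, beside -0.02 over all tested genes. Leaving out replicate 3 of the control gave 5, since UMAMIT11 was no longer past the threshold. With library totals in place of size factors the median over all tested genes moved from -0.02 to 0.15, and the share of all calls that were higher from 43.1% to 74.0%.

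UMAMIT25 reached its highest counts here, with 21219, 14903 and 19628 at 27 °C. At 23 °C it had 5079, 5744 and 9303, and at 25 °C 7697, 6939 and 5639. All 27 °C libraries exceeded the other 6, and the log2 fold change against 23 °C was 1.47 ± 0.17, or 1.78 ± 0.14 without control replicate 3, the highest of its group. UMAMIT28 had 193, 266 and 206 at 23 °C and 1146, 723 and 1053 at 27 °C, a log2 fold change of 2.13 ± 0.24. UMAMIT24 had 162, 86.2 and 90.5 at 23 °C and 400, 293 and 364 at 27 °C, a log2 fold change of 1.64 ± 0.31. Neither gene overlapped between the 2 temperatures.

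UMAMIT29, an exporter of seed tissues, was also higher. Its bent counts were 1900, 2041 and 3530 at 23 °C and 4631, 4030 and 4221 at 27 °C, a log2 fold change of 0.79 ± 0.19. Without control replicate 3, the library with 3530, it was 1.12 ± 0.16. In bent seeds the endosperm marker sum was 71542 to 106199 at 27 °C and 46176 to 82583 at 23 °C, with 2 of 7 higher, and the seed coat sum was 50053 to 55477 and 65108 to 111414, with 1 of 9 higher and 3 lower. The storage protein sum was 127341 to 265150 at 27 °C and 101416 to 129535 at 23 °C, with 0 of 9 past the threshold. Their part in the transporter values was not tested.

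At the mature stage the pattern was another one. UMAMIT18, UMAMIT24 and AAP1 were past the threshold as higher, and UMAMIT14 as lower, where 14.7% and 15.4% of all tested genes were. Groups did not overlap for 4 genes as higher (these 3 and UMAMIT28) and 2 as lower (UMAMIT14 and UMAMIT29), as for 25.1% and 25.4% of all tested genes. Leaving out the 27 °C library of replicate 1 reduced the higher genes from 3 to 1, with UMAMIT18 and UMAMIT24 lost.

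UMAMIT25 counts in mature seeds were 11879, 11482 and 10361 at 23 °C and 11855, 12130 and 12642 at 27 °C, which overlapped, with a log2 fold change of 0.12 ± 0.17. UMAMIT28 had 887, 727 and 767 at 23 °C and 1020, 921 and 1034 at 27 °C. These groups did not overlap, but the log2 fold change of 0.32 ± 0.24 was past the threshold only with the stage fitted alone. UMAMIT29 was lower, with 5535, 4554 and 4627 at 23 °C and 3697, 3484 and 3567 at 27 °C. Its log2 fold change of -0.45 ± 0.19 was not past the threshold either, and was past it with library totals, with the stage fitted alone, or with any 1 of 6 libraries of other groups left out. UMAMIT24 alone of the 4 was past it, with 737, 639 and 691 at 23 °C and 1536, 1372 and 1124 at 27 °C, a log2 fold change of 0.96 ± 0.30.

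The same 4 genes increased with development. At 23 °C the log2 fold change from heart to bent was 2.35 ± 0.35 for UMAMIT24, 2.11 ± 0.17 for UMAMIT25, 3.38 ± 0.30 for UMAMIT28 and 1.56 ± 0.19 for UMAMIT29. From bent to mature it was 2.61 ± 0.31, 0.75 ± 0.17, 1.84 ± 0.24 and 0.98 ± 0.19 in the same order. In this control series 4 of the 9 genes were past the threshold as higher and 4 as lower from heart to bent (29.3% and 29.6% of all tested genes), and 5 as higher and 0 as lower from bent to mature (23.4% and 27.0%).

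At 27 °C the later step was another one for 3 of them. From bent to mature the log2 fold change was -0.61 ± 0.17 for UMAMIT25, 0.03 ± 0.24 for UMAMIT28 and -0.26 ± 0.19 for UMAMIT29, while UMAMIT24 still had 1.93 ± 0.30. The bent 27 °C counts of UMAMIT25 were all above its mature counts at any temperature. Those of UMAMIT29 were all above its mature counts at 27 °C and, for 2 of 3 libraries, under every mature count at 23 °C. With library totals all genes shifted to a median of -0.38 (log2) in this step, and UMAMIT29 was at -0.64 and past the threshold.

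The difference between stages in the 27 °C effect is given as a description. Mature minus heart was -3.28 ± 0.38 for UMAMIT28, -1.59 ± 0.27 for UMAMIT29, -1.49 ± 0.24 for UMAMIT25 and -0.93 ± 0.46 for UMAMIT24 on the log2 scale. Without the control heart library of replicate 1 the UMAMIT24 difference was -1.53 and past the threshold, which it was not with all libraries. For AAP1 it was 1.08 ± 0.18, and for AAP8, with few counts, 0.87 ± 0.89. Mature minus bent was -1.81 ± 0.34 for UMAMIT28, -1.35 ± 0.24 for UMAMIT25 and -1.24 ± 0.27 for UMAMIT29. It was -0.68 ± 0.43 for UMAMIT24, not past the threshold, and 1.00 ± 0.18 for AAP1. For UMAMIT14 it was -0.98 ± 0.33 and for UMAMIT18 -0.64 ± 0.19, both past the threshold but lost with several single libraries left out. UMAMIT11 had -0.13 ± 0.26 and AAP8 0.28 ± 0.94.

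**Figure D2:**
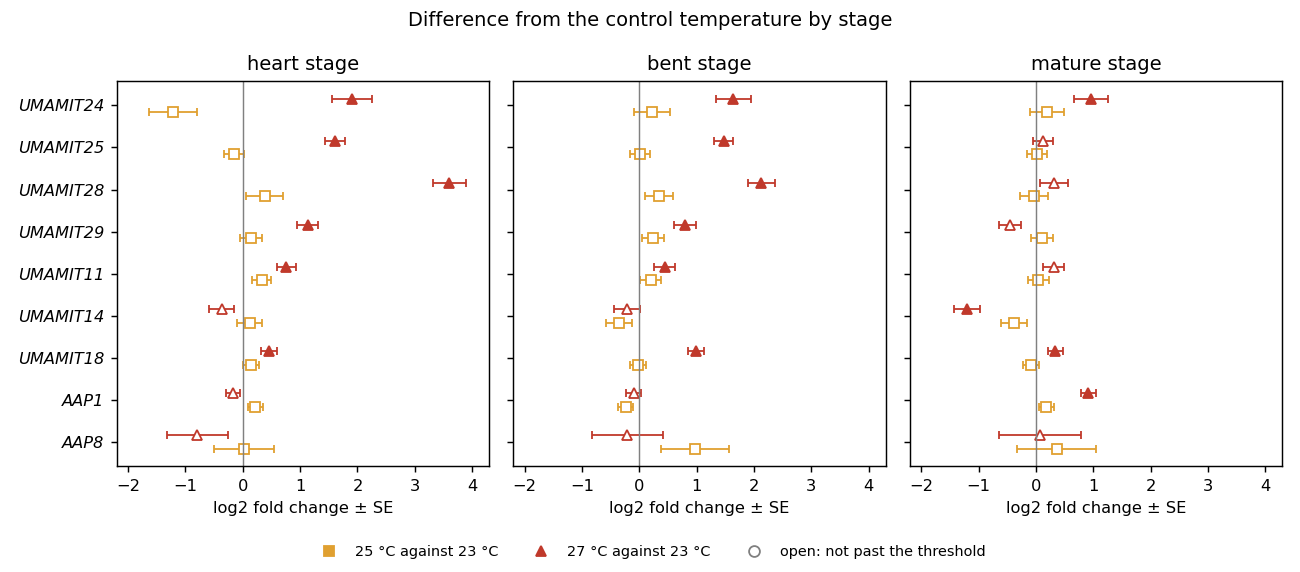
Log2 fold change ± SE (horizontal axis) of the 9 genes against 23 °C at the heart, bent and mature stages, with squares for 25 °C and triangles for 27 °C and open symbols for values not past the threshold. UMAMIT28 at 27 °C falls from 3.60 in heart seeds to 2.13 in bent and 0.32 in mature seeds, and none of the 25 °C symbols is filled.

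UMAMIT11, UMAMIT14 and UMAMIT18 followed other courses. UMAMIT11 was highest in heart seeds, with 458, 391 and 312 at 23 °C, 529, 408 and 517 at 25 °C and 648, 615 and 701 at 27 °C. The 27 °C libraries were above all others of the stage, and the log2 fold change against 23 °C was 0.76 ± 0.17. In bent seeds it was 0.44 ± 0.18, with counts of 209 to 239 at 23 °C and 288 to 325 at 27 °C, and this call was lost without replicate 2 or 3 of the control or without any 1 of the 27 °C libraries. In mature seeds it was 0.31 ± 0.18 and the groups overlapped, and without control replicate 3 it was 0.52 and past the threshold.

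UMAMIT14, which unloads amino acids from the phloem, was highest in heart seeds. At 23 °C it had 2056, 2058 and 1742 at the heart stage. The bent libraries had 746, 556 and 818, and the mature ones 464, 570 and 555. In mature seeds at 27 °C it had 196, 234 and 260.0, all under the control libraries, a log2 fold change of -1.20 ± 0.23. In heart seeds at 27 °C the counts were 1547, 1425 and 1558, also all under the control ones, but the log2 fold change of -0.37 ± 0.22 was past the threshold only with the stage fitted alone. In bent seeds it was -0.22 ± 0.23 with overlapping groups. In mature seeds the seed coat marker sum was 25475 to 26664 at 27 °C and 31152 to 39943 at 23 °C, with 1 of 9 higher and 3 lower. The endosperm sum was 162410 to 190564 and 172477 to 191393, with 0 of 7 higher, 1 lower and a median log2 fold change of -0.74. Their part in the mature values of UMAMIT14 and UMAMIT29 was not tested.

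UMAMIT18, known as SIAR1, was past the threshold as higher at all 3 stages, as UMAMIT24 was. In bent seeds it had 1029, 931 and 1094 at 23 °C and 2186, 1668 and 2153 at 27 °C, a log2 fold change of 0.98 ± 0.14 with wide separation. In heart seeds the counts were 1237, 977 and 947 against 1447, 1489 and 1387, a log2 fold change of 0.45 ± 0.14. In mature seeds they were 2935, 2699 and 2492 against 3498, 3485 and 3299, a log2 fold change of 0.34 ± 0.13. The heart call was lost without control replicate 2 or 3, and the mature call without control replicate 2 or 3 or any 1 of the 27 °C libraries.

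AAP1, the importer of the embryo, was past the threshold at 27 °C in mature seeds. Its mature counts were 2201, 2158 and 2061 at 23 °C, 2848, 2025 and 2385 at 25 °C, and 4791, 3705 and 3562 at 27 °C. Every 27 °C library was above the other 6, and the log2 fold change against 23 °C was 0.91 ± 0.13. In heart seeds it had 2790, 2826 and 2690 at 23 °C and 2461, 2350 and 2590 at 27 °C, without overlap, but the log2 fold change of -0.17 ± 0.13 was past the threshold only with the stage fitted alone. In bent seeds the value was -0.10 ± 0.13, it was 0.07 ± 0.12 without control replicate 3, and the groups overlapped. The 7 embryo markers summed to 776270 to 1215493 in mature seeds at 27 °C and 852310 to 955139 at 23 °C, with 0 higher and 2 lower, and the storage protein sums overlapped too. Their part in the AAP1 value was not tested.

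AAP8, the importer of the early endosperm, varied widely between libraries and was the least abundant of the 9 in bent and mature seeds. In heart seeds it had 47.6, 222 and 126 at 23 °C, 118, 197 and 86.7 at 25 °C, and 85.2, 47.4 and 95.5 at 27 °C, and the groups overlapped, with a log2 fold change of -0.79 ± 0.54 at 27 °C. From heart to bent it was lower at each temperature, by a log2 fold change of -3.36 ± 0.58 at 23 °C and -2.78 ± 0.58 at 27 °C. Bent libraries ranged from 4.83 to 37.7 and mature libraries from 2.51 to 16.3. At 27 °C against 23 °C the log2 fold change was -0.21 ± 0.62 in bent and 0.07 ± 0.71 in mature seeds, with overlapping groups.

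Mild stress was then set against the control. At 25 °C against 23 °C, 0 of the 9 genes were past the threshold in heart seeds (0.821% of all tested genes were, in either direction), 0 in bent ones (3.06%) and 0 in mature ones (1.60%). In bent seeds DESeq2 withheld the adjusted p of 4 of the 9 genes, UMAMIT11, UMAMIT24, UMAMIT28 and AAP8. Groups without overlap made up 11.1%, 14.7% and 15.9% of all tested genes in the same order. Of the 9 genes this was so once, for AAP1 in heart seeds, with 3046, 3324 and 3274 at 25 °C above every control library and a log2 fold change of 0.22 ± 0.13. Of the 27 values the largest in size was that of UMAMIT24 in heart seeds, -1.22 ± 0.42, with 13.6, 5.34 and 9.53 at 25 °C, which overlapped with the control. Without control replicate 2 it was -1.60 and past the threshold.

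Between 25 °C and 27 °C the count of genes past the threshold was 4 higher and 1 lower in heart seeds (10.8% and 8.77% of all tested genes). The bent counts were 5 higher and 0 lower (11.0% and 11.8%), and the mature counts 3 higher and 2 lower (14.2% and 17.8%). These comparisons share the 27 °C libraries with those above. In heart seeds the higher genes were UMAMIT24 (3.12 ± 0.40), UMAMIT25 (1.76 ± 0.17), UMAMIT28 (3.22 ± 0.28) and UMAMIT29 (0.99 ± 0.19), and AAP1 was lower (-0.38 ± 0.13). The AAP1 call was lost without replicate 2 or 3 of the 25 °C libraries or replicate 1 or 2 of the 27 °C libraries, and the heart count of 5 ranged from 4 to 7 with single libraries left out. Without replicate 3 of the mature 25 °C group, the mature count fell from 5 to 1, and without replicate 2 UMAMIT18, UMAMIT24 and UMAMIT29 were no longer past it while UMAMIT11 was. Without replicate 2 of the mature 27 °C group the count was 3.

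Levels between genes were compared per length, as CPM per kilobase of transcript (the share of the library total, scaled to length). In control heart seeds the order was AAP1 (87.8 ± 1.66), UMAMIT14 (73.6 ± 6.42), UMAMIT25 (57.2 ± 8.87), UMAMIT18 (38.3 ± 5.74), UMAMIT29 (34.0 ± 4.23), UMAMIT11 (13.1 ± 2.43), AAP8 (4.94 ± 3.25), UMAMIT24 (1.26 ± 0.81) and UMAMIT28 (0.771 ± 0.369), each a mean ± SD of 3 libraries. UMAMIT18 and UMAMIT29 did not differ beyond their spread, nor did the neighbours AAP8, UMAMIT24 and UMAMIT28. From the bent stage on UMAMIT25 led at every temperature, separately from the next gene, UMAMIT29. Its level was 210.0 ± 29.6 in bent seeds at 23 °C, 678 ± 106.0 at 27 °C, and 312 ± 19.7 and 344 ± 27.9 in mature seeds.

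At 27 °C the order differed. UMAMIT25 was first already in heart seeds, at 184, ahead of AAP1 at 82.6 and UMAMIT29 at 78.8, which did not differ beyond their spread. UMAMIT28 was at 9.84 in heart seeds and 35.0 in bent seeds, at the latter stage ahead of UMAMIT14 at 22.7. In mature seeds UMAMIT29 (111), AAP1 (97.4) and UMAMIT18 (95.6) followed UMAMIT25 and each overlapped with the next.

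A set of 75 listed genes held the 9, 44 other UMAMIT or MtN21-type genes, 6 other AAP genes and 16 other carriers. The MtN21-type genes were taken by description, so not each of them need carry amino acids. Among these 75, UMAMIT25 ranked 7 in control heart seeds, 2 at 27 °C in heart seeds, and 1 in every bent and mature group. UMAMIT28 ranked 61 in control heart seeds and 39 at 27 °C, and 36 and 15 in bent seeds. The 9 genes held 20.8% of the summed level of the 75 in heart seeds at 23 °C and 27.3% at 27 °C. At the bent stage they held 30.2% and 44.2%, and at the mature stage 39.6% and 37.0%. In bent and mature seeds these shares weigh UMAMIT25 most, whose bent level was 210.0 at 23 °C and 678 at 27 °C. For UMAMIT29, the next of the 9, it was 85.4 and 172. Since the 9 genes were chosen with these differences in view, the shares are a description only.

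**Figure D3:**
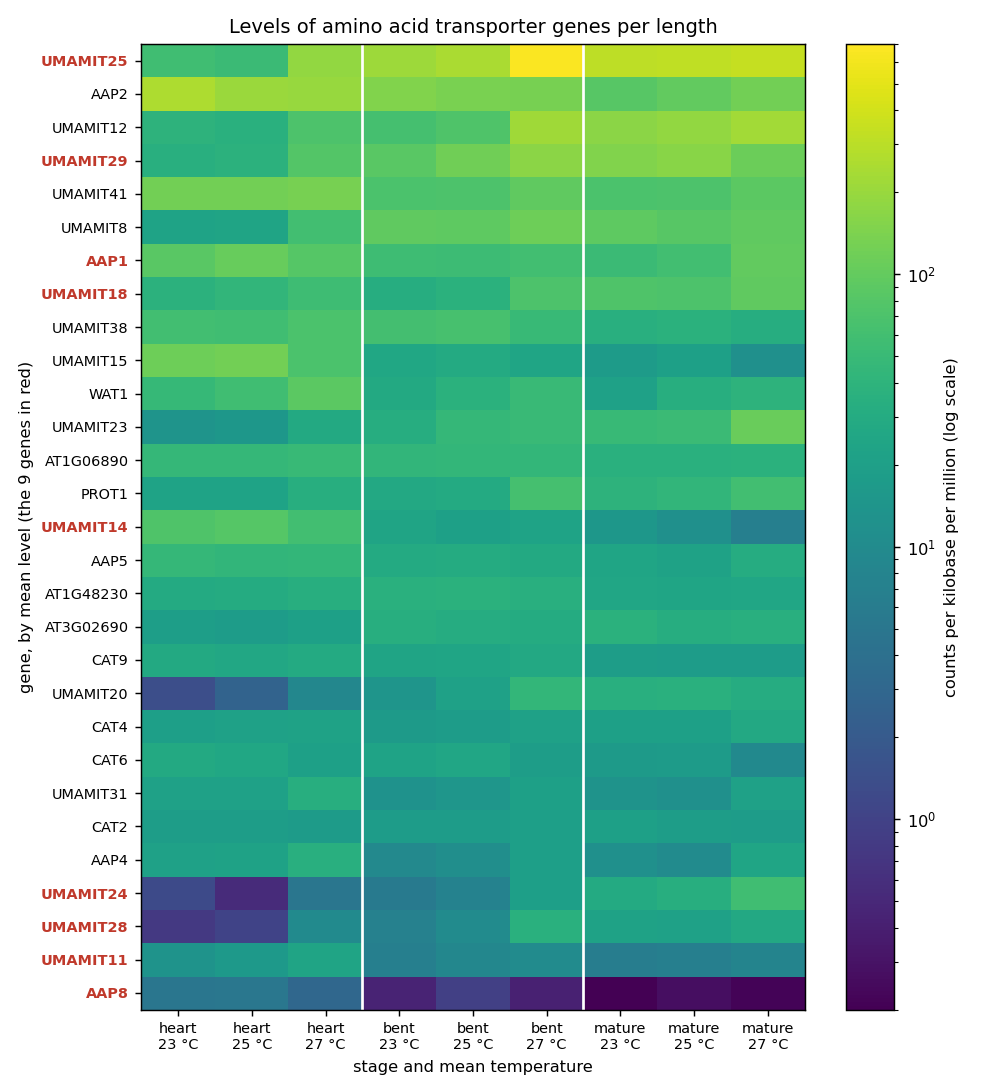
Mean CPM per kilobase (colour, log scale) in each of the 9 groups for the 25 genes of highest mean level among the 75, together with those of the 9 genes that are not among them (29 rows, the 9 genes in red). UMAMIT25 is brightest in bent seeds at 27 °C, at 678, and AAP8 lies between 0.204 and 0.274 in mature seeds.

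The 9 loci lie on chromosomes 1, 2 and 4, and no pair of them is adjacent. In the TAIR10.1 annotation UMAMIT28 spans chr1:38444-41017, UMAMIT25 chr1:3026062-3029549, AAP8 chr1:3265886-3268823, UMAMIT24 chr1:8857726-8859909, UMAMIT18 chr1:16913994-16917053 and AAP1 chr1:21676388-21680519. UMAMIT14 spans chr2:16491143-16493343 and UMAMIT11 chr2:17063098-17065813, and UMAMIT29 lies on chromosome 4. Another gene of the family, UMAMIT31, lies 2 genes from UMAMIT29.

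For 3 of the loci the counts were divided between transcripts by the estimate. Transcript 1 held 90.2% of the UMAMIT28 counts and 88.1% of the UMAMIT29 counts, and in single libraries 73.7% to 100% and 83.7% to 91.8%. Transcript 2 held 95.1% of the AAP8 counts, and in single libraries 0% to 100%, with a median of 100%. Reads were 50 bases long, and 14 of the 1049 windows of 50 bases in the UMAMIT28 coding sequence also occur in another listed UMAMIT or AAP gene, against 0 for each of the other 8 genes.

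Proteins translated from the annotated coding sequences were 355 to 394 residues long for the UMAMIT genes and 485 and 476 for AAP1 and AAP8. UMAMIT28 and UMAMIT29 were the closest pair among the 7, with 73.3% identical residues over 352 aligned. UMAMIT14 and UMAMIT18 had 51.4%, and all pairs of UMAMIT24 or UMAMIT25 with another of the 7 had 33.3% to 37.0%. AAP1 and AAP8 had 76.6%. Over the whole family, the nearest relative of UMAMIT28 was UMAMIT27 (79.5%), of UMAMIT18 UMAMIT17 (75.8%), of UMAMIT24 UMAMIT23 (57.2%), of UMAMIT14 UMAMIT12 (55.4%) and of UMAMIT25 UMAMIT9 (39.3%).

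**Figure D4:**
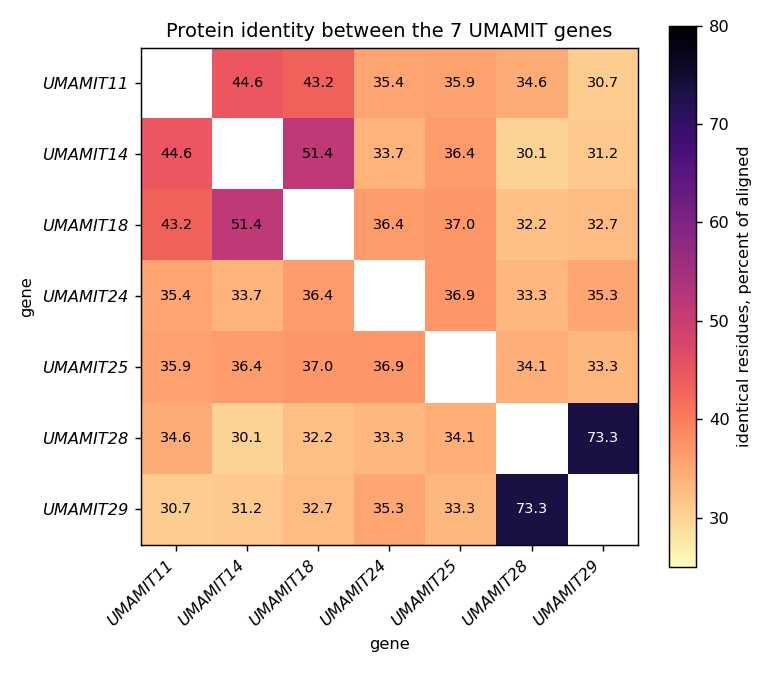
Percent of identical residues among aligned residues (colour and printed value) for each pair of the 7 UMAMIT proteins, named on both axes. UMAMIT28 with UMAMIT29, at 73.3, is the highest pair, followed by UMAMIT14 with UMAMIT18 at 51.4.

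The genes whose log2(normalised count + 1) followed each of the 9 most closely over the 27 libraries were sought among 15776 loci with a mean normalised count of at least 100, by Pearson r. The 27 points share stage and temperature, so r describes likeness of course only. UMAMIT25 was nearest to SAG29 (r = 0.984), which encodes the sucrose exporter SWEET15, and NAC100 (0.980). UMAMIT24 was nearest to the nitrate transporter gene NRT1.8 (0.983) and AT2G18360 (0.980), UMAMIT28 to PAP21 (0.981) and BGLU41 (0.974), and UMAMIT29 to UMAMIT20 (0.971) and AT4G02630 (0.970). UMAMIT18 was nearest to AAPT2 (0.972) and AT1G23120 (0.969), UMAMIT14 to ANNAT1 (0.958) and PAP2 (0.954), and UMAMIT11 to ABCG29 (0.942) and STM (0.922). AAP8 was nearest to AT2G02490 (0.956) and AT2G30810 (0.953). AAP1 had the least close partners, LysoPL2 (0.895) and AT2G01820 (0.886).

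The rest of the families was tested in the same fit, with DESeq2 adjusted p-values over all tested genes. The counts below are to be read against the shares of all tested genes that were higher and lower, which were 12.6% and 11.5% in heart, 15.9% and 21.0% in bent, and 14.7% and 15.4% in mature seeds. Of 37 other UMAMIT or MtN21-type genes tested, 15 rose and 2 fell at 27 °C in heart seeds. In bent seeds 13 rose and 9 fell, and in mature seeds 10 rose and 5 fell. Without the mature 27 °C library of replicate 1 the mature count of 15 was 9. The bent count of 22 was 15 without the bent 27 °C library of replicate 3. It was 17 with library totals and 16 with the highest transcript only. Their median log2 fold changes were 0.34, 0.22 and 0.00, beside -0.01, -0.02 and 0.00 over all tested genes. UMAMIT27, the nearest relative of UMAMIT28, rose in heart seeds from 22.2 ± 1.4 to 204 ± 20.7 normalised counts (SD, n = 3; log2 fold change 3.20 ± 0.28, adjusted p = 2.16e-28) and also in bent seeds (1.16 ± 0.22, 2.55e-06), and had 0.15 ± 0.22 in mature seeds. UMAMIT20 rose in heart seeds from 40.2 ± 11.2 to 232 ± 35.8 (2.53 ± 0.25, 3.16e-21) and in bent seeds (1.47 ± 0.22, 4.67e-10), and had -0.15 ± 0.22 in mature seeds. UMAMIT17, the nearest relative of UMAMIT18, rose at all stages, most in bent seeds, from 40.4 ± 26.3 to 329 ± 76.0 (3.01 ± 0.40, adjusted p = 3.89e-12), and in heart (1.32 ± 0.39, 0.00474) and mature seeds (1.35 ± 0.38, 0.00273). UMAMIT12 also rose at all stages, in bent seeds from 2010 ± 616 to 5910 ± 1140 (1.55 ± 0.16, 3.99e-19), in heart seeds by 0.82 ± 0.16 (1.5e-05) and in mature seeds by 0.40 ± 0.16 (0.0456). UMAMIT23, the nearest relative of UMAMIT24, rose in mature seeds from 1700 ± 130 to 3720 ± 607 (1.13 ± 0.14, adjusted p = 5.33e-13), in heart seeds by 1.00 ± 0.15 (1.56e-09) and in bent seeds by 0.46 ± 0.15 (0.00697).

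Other genes of this family fell in at least 1 stage. UMAMIT15 fell in heart seeds from 2550 ± 134 to 1430 ± 121 (SD, n = 3; log2 fold change -0.83 ± 0.12, DESeq2 adjusted p = 2.67e-10) and in mature seeds (-0.59 ± 0.13, 0.00011), and had -0.29 ± 0.13 (0.0527) in bent seeds. UMAMIT38 fell in bent seeds (-0.53 ± 0.14, 0.00123) and had 0.13 ± 0.14 in heart and -0.12 ± 0.14 in mature seeds. UMAMIT45 rose in heart seeds (0.34 ± 0.10, 0.00405) and fell in bent (-0.48 ± 0.10, 4.66e-05, a call lost with library totals) and mature seeds (-0.29 ± 0.11, 0.0359). UMAMIT1 likewise rose in heart seeds (0.61 ± 0.14, 0.000132) and fell in bent (-0.41 ± 0.13, 0.0068) and mature seeds (-0.53 ± 0.15, 0.00244).

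Of the 6 other AAP genes, 2 rose and 0 fell in heart seeds. In bent seeds 3 rose and in mature seeds 5 rose, with 0 falling at either stage. The mature count of 5 was 3 without control replicate 1 or 2 or without 27 °C replicate 1, and the heart count of 2 was 1 without 27 °C replicate 3. AAP7 rose at all stages (1.00 ± 0.18 with DESeq2 adjusted p = 4.31e-07, 1.24 ± 0.18 with 6.57e-10, and 1.19 ± 0.18 with 2.95e-09), as did AAP4 (0.61 ± 0.19 with 0.00975, 0.91 ± 0.20 with 3.92e-05, and 1.02 ± 0.19 with 3.44e-06). AAP3 rose in bent seeds (2.60 ± 0.44, 8.29e-08) and in mature seeds, there from 65.9 ± 17.0 to 607 ± 147 (3.20 ± 0.41, 5.87e-13), and had -0.79 ± 0.40 (0.144) in heart seeds.

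Among 16 other amino acid carriers, 3 rose and 2 fell in heart seeds. In bent seeds 4 rose and 1 fell, and in mature seeds 3 rose and 2 fell. Without the heart 27 °C library of replicate 2 the heart count of 5 was 2. The shares of all tested genes given above apply to these counts too. PROT1, a proline transporter gene, rose at all stages (0.49 ± 0.14, adjusted p = 0.0034, then 1.01 ± 0.14, 1.09e-11, and 0.61 ± 0.14, 8.65e-05). CAT6, a cationic amino acid transporter gene, fell at all stages (-0.54 ± 0.14, 0.0007, then -0.44 ± 0.14, 0.00554, and -0.86 ± 0.14, 3.32e-08). LHT1, a lysine and histidine transporter gene, fell in mature seeds (-0.77 ± 0.21, 0.00176) and was not past the threshold at the other stages (-0.01 ± 0.20 and -0.06 ± 0.20). CAT3 fell in heart seeds (-0.31 ± 0.09, 0.00485) and had -0.20 ± 0.11 and -0.15 ± 0.12 later. ANT1 rose in bent seeds (0.38 ± 0.13, 0.016), and had 0.16 ± 0.13 in heart and 0.06 ± 0.13 in mature seeds. AAT1 rose in bent (1.47 ± 0.31, 2.18e-05) and mature seeds (0.86 ± 0.27, 0.0086), and had 0.43 ± 0.29 in heart seeds.

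Of 14 genes of nitrogen and amide metabolism, 1 rose and 5 fell in heart seeds, where 12.6% and 11.5% of all tested genes did. In bent seeds 2 rose and 5 fell (15.9% and 21.0%), and in mature seeds 5 rose and 3 fell (14.7% and 15.4%). Without the control heart library of replicate 1 the heart counts were 4 and 6. The glutamine synthetase gene GSR 1 rose in mature seeds from 7810 ± 325 to 19000 ± 3170 (SD, n = 3; log2 fold change 1.28 ± 0.25, DESeq2 adjusted p = 7.93e-06), and had 0.46 ± 0.25 in heart and 0.13 ± 0.25 in bent seeds. GDH3, for glutamate dehydrogenase, rose in mature seeds from 29.5 ± 12.3 to 194 ± 33.8 (2.71 ± 0.69, 0.000704), and had 0.46 ± 0.67 in heart seeds. It also rose in bent seeds, on few counts, from 2.81 ± 3.35 to 29.8 ± 6.01 (3.34 ± 0.84, 0.000486). ASPGA1, for an asparaginase, fell in heart (-0.36 ± 0.09, 0.00155), bent (-0.68 ± 0.10, 7.14e-11) and mature seeds (-0.91 ± 0.10, 2.37e-16). GDH1 fell at the same stages (-0.38 ± 0.10, 0.00138, then -0.80 ± 0.10, 1.02e-14, and -0.75 ± 0.09, 6.91e-14). GLN1.3 rose in bent (0.54 ± 0.13, 0.000235) and mature seeds (0.52 ± 0.13, 0.000573), and had -0.31 ± 0.13 (0.0608) in heart seeds. ASPGB1 rose in heart (0.93 ± 0.28, 0.00724) and mature seeds (1.85 ± 0.33, 4.68e-07), and had 0.47 ± 0.31 in bent seeds. The asparagine synthetase genes ASN2 and ASN3 fell in heart seeds (-0.51 ± 0.09, 1.11e-06, and -0.39 ± 0.07, 7.13e-07) and bent seeds (-0.37 ± 0.09, 0.000507, and -0.32 ± 0.07, 0.000118), and had -0.17 ± 0.10 and -0.12 ± 0.08 in mature seeds.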

How the data were processed

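The authors extracted total RNA from whole seeds, had libraries made after enrichment of mRNA, sequenced 50-base single-end reads and assigned them to Araport11 transcripts with Salmon 1.2. The authors deposited Salmon's estimated counts for each transcript in each library, without normalisation or pooling, and 61.5% of the values are not whole. For the instrument and the growth temperature before flowering, the labels give other values than the methods do. All count columns belonged to the 27 libraries (0 unused).

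Here the estimates of the 48268 transcripts were summed per locus (27587 loci) and rounded. Whether counting used strand is not stated in the sources used here, so overlapping and antisense genes are uncertain, as are near-identical copies. Names and positions came from RefSeq TAIR10.1, in which 27392 loci were found. DESeq2 1.42.0 in R 4.3.3 (two-sided Wald test; the study names DESeq2 but, in the sources used here, not the kind of test) was fitted to 21445 loci that reached 10 counts in 3 or more libraries. All 9 groups entered 1 fit, scaled by median-of-ratios and without covariates, with Benjamini-Hochberg adjustment over all tested genes. A gene was past the threshold at an adjusted p under 0.05. The method was tested on simulated data.

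The 9 genes, the lists and the rule for other named genes were chosen with earlier results of these data known. That rule took up to 2 genes per direction, stage and list with the largest fold change at 27 °C among those past the threshold, with a mean normalised count of at least 100 and groups that did not overlap. The design foresaw protein and promoter tables. Proteins were instead translated from the annotated coding sequences and aligned with Biopython 1.88, and promoters were the 250 bases before the gene start, read from the genome. The promoter of 1 of the genes is not reported here. Levels per length used the count-weighted transcript length. Counting error is only part of the error, since libraries of the same group differed by more than counting alone gives. Reads carry no molecular identifiers. Alternatives were edgeR 4.0.16 (quasi-likelihood), TMM and library-total scaling, no filter on low counts, no independent filtering, a replicate block, each stage alone, the highest transcript only, an adjusted p under 0.01, and each of 27 libraries left out.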

Additional observations from a re-analysis of the deposited data

Results flagged for a closer look

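Among the 9 genes, UMAMIT29 and AAP1 had groups without overlap in opposite directions at different stages. UMAMIT29 was higher at 27 °C than at 23 °C in heart seeds (log2 fold change 1.13) and bent seeds (0.79). It was lower in mature seeds (-0.45 ± 0.19), which was not past the threshold. AAP1 was lower in heart seeds (-0.17 ± 0.13), also not past the threshold, and higher in mature seeds (0.91 ± 0.13). At a single stage, 21.5% to 25.4% of all tested genes had groups without overlap in a given direction. The share with opposite directions at different stages was not computed. These differences between stages are given above as a description and without p-values, since the genes were chosen on these data.

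For other transporters of the lists, the difference between stages in the effect of 27 °C was tested in the same DESeq2 fit, with p-values adjusted over all tested genes and n = 3 libraries per group. Values are differences of log2 fold changes. For UMAMIT27 the effect differed by -2.05 between bent and heart seeds (adjusted p = 6.02e-07), by -1.01 between mature and bent seeds (0.026) and by -3.06 between mature and heart seeds (1.09e-15). For UMAMIT20 the same 3 differences were -1.05 (0.0151), -1.62 (1.08e-05) and -2.68 (1.22e-13).

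Bent minus heart was 0.53 for UMAMIT15 (adjusted p = 0.0195 in DESeq2), 1.69 for UMAMIT17 (0.022), 0.74 for UMAMIT12 (0.0151), -0.66 for UMAMIT38 (0.011), -0.81 for UMAMIT45 (8.69e-07), -1.03 for UMAMIT1 (4.25e-06), 3.39 for AAP3 (1.03e-06) and 0.52 for PROT1 (0.0499). Mature minus bent was -1.67 for UMAMIT17 (0.047), -1.15 for UMAMIT12 (4.74e-05) and 0.67 for UMAMIT23 (0.0241). Mature minus heart was -0.63 for UMAMIT45 (0.000536), -1.14 for UMAMIT1 (9.14e-07) and 4.0 for AAP3 (3.65e-10).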

How the results depend on the processing

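The check took those 85 of the 162 log2 fold changes of the 9 genes that were past the threshold. Since the genes were chosen on these data, this count is no result about them. For the temperature comparisons and the stage steps at 23 °C, the shares of all tested genes are given above. The 2921 values of these 85 fold changes under the alternatives all kept their sign. Of these values 87, in 15 fold changes, were no longer past the threshold. Many of the 2921 could barely move, because a left-out library of another group, or another filter, leaves the compared counts as they were. The shares kept are therefore no measure of stability. With each stage fitted alone, 2 of the 9 genes in place of 0 were lower in heart seeds at 27 °C against 23 °C. In mature seeds it was 2 in place of 1. Of all tested genes 2685 in place of 2467 were then lower in heart seeds and 3053 in place of 3305 in mature seeds. Between 27 °C and 25 °C in heart seeds 8 of the 9 in place of 5 differed. Of all tested genes 2232 were then higher and 2147 lower, in place of 2321 and 1880. Among other AAP genes 4 in place of 2 changed in heart seeds at 27 °C against 23 °C. With library totals, 2 of the 9 genes in place of 1 were lower in mature seeds at 27 °C against 23 °C. Of all tested genes it was 2470 in place of 3305. At an adjusted p under 0.01, 3 of the 9 genes in place of 5 differed between 27 °C and 25 °C in mature seeds. At 27 °C against 23 °C in mature seeds 8 other UMAMIT genes in place of 15 and 3 other AAP genes in place of 5 changed. A stricter cut-off can only lower such counts, and the share of all tested genes past it is not given here. With the highest transcript only, 1 other AAP gene in place of 2 and 2 other carriers in place of 5 changed in heart seeds, and 3 carriers in place of 5 in mature seeds. The cause was not tested.

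With each library left out in turn, the count of higher genes among the 9 at 27 °C against 23 °C was 5 to 6 in heart seeds, 5 to 6 in bent seeds and 1 to 3 in mature seeds, and that of lower genes in mature seeds 1 to 2. At 25 °C against 23 °C in heart seeds it was 0 to 1, the 1 without control replicate 2, and between 27 °C and 25 °C in mature seeds 1 to 5. Of other genes at 27 °C against 23 °C, 9 to 15 UMAMIT and 3 to 5 AAP genes changed in mature seeds. In bent seeds 15 to 23 other UMAMIT genes changed. In heart seeds it was 14 to 19 other UMAMIT genes, 1 to 3 AAP genes, 2 to 5 carriers and 5 to 10 genes of nitrogen metabolism. With the replicate number as a block, 5 of the 9 genes in place of 6 were higher in bent seeds at 27 °C against 23 °C, without UMAMIT11. Of all tested genes 3414 in place of 3412 were then higher. Deviations of libraries with the same number had a mean correlation of 0.002 (-0.42 to 0.35 in 108 pairs). For different numbers it was -0.001 (-0.39 to 0.39 in 216 pairs). Deviations sum to 0 within a group, so these 2 means are not independent. Whether libraries of some groups shared a batch was not tested. Among the 9 genes, AAP8 had the largest standard errors at 27 °C against 23 °C, 0.54, 0.62 and 0.71 at the heart, bent and mature stages, followed by UMAMIT24 with 0.35, 0.31 and 0.30.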
